A study of Mus musculus with 18 samples.

Results

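The regions described here are 990 stretches of mouse autosomal chromatin with a peak of trimethylated histone H3 lysine 4 (H3K4me3) past a set score in Rb-deleted fibroblasts and no H3K4me3 peak in control fibroblasts. They were chosen by 3 properties of the authors' peak lists: a peak of the Cre H3K4me3 list lying on chromosomes 1 to 19, a score of at least 100, and not 1 base shared with any peak of the GFP H3K4me3 list. The score is the authors' own value per peak, is deposited without a unit and starts at 50 in each list, so a region without a peak is one with no entry past that limit and not one at 0. Of 18796 autosomal Cre H3K4me3 peaks that reached the score, the 990 made up 5.27%, and the other 17806 overlapped a GFP peak. The whole Cre list held 22621 peaks, 21850 of them autosomal. Presence in Cre and absence in GFP selected these regions, so neither is a finding, and no test is made on them.

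The cells were mouse embryonic fibroblasts of mixed B6;129 background with a conditional knockout of Rb, the retinoblastoma gene. Adenovirus carrying Cre recombinase deleted Rb in the Cre cells, and the GFP cells received adenovirus with green fluorescent protein as the control. Both groups are labelled as conditional knockout cells with no 4F, and the infected cells were expanded over at most 3 passages before chromatin immunoprecipitation. How many of the Cre cells had lost Rb was not analysed here. Pan-acetylated histone H3 (H3Ac), H3K4me3, H3K9me3 and H3K27me3 were each sequenced as 1 library per condition, giving 8 peak lists. All 8 libraries are numbered as replicate 3, while the GFP input for the histone libraries carries number 1 and the Cre input number 3. With 1 library per mark and condition there was no replicate check for any difference, no test was possible, and the 95% intervals given below are exact binomial (Clopper-Pearson) intervals that cover counting error only. Neighbouring peaks are not independent, and the read depth behind the lists is unknown.

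H3K4me3 is written by the SET1 and MLL methyltransferase complexes and marks promoters that are active or poised. Acetylated H3 is found at active promoters and enhancers, and is removed by histone deacetylases, which the Rb protein can bring to promoters of E2F target genes. H3K27me3 is laid down by Polycomb repressive complex 2 at silent developmental genes and can share a promoter with H3K4me3, the arrangement called bivalent, while H3K9me3 marks heterochromatin. Regions are named by chromosome, start and end in mouse build NCBIM37, counted from 1. Gene models of NCBIM37 were not used here. No gene is therefore named, and neither the fibroblast label nor the Rb deletion was checked against genes. In bulk chromatin, more cells that carry a mark and more of the mark per cell cannot be told apart.

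Most of the 990 regions were weak members of the Cre list. Their median score was 142.2, with quartiles of 116.5 and 196.4, and 29 lay above 898.3, the median of all autosomal Cre H3K4me3 peaks. Scores from 100 to 200 accounted for 750 regions, 200 to 500 for 190, and 500 or more for 50. At the threshold itself, the last 3 regions inside scored 100.17, 100.02 and 100, and the first 3 outside scored 99.93, 99.93 and 99.90. The share of Cre peaks lacking a GFP counterpart was therefore highest among weak peaks: 27.2% between 100 and 200, 5.95% between 200 and 500, and 0.389% at 500 and above. A region of this set with a score over 500 was thus a rare exception among 12847 autosomal Cre peaks of that strength. In the reverse direction, 677 of 18729 autosomal GFP peaks past 100 (3.61%) had no Cre counterpart, and 10 of these reached 500, the highest with 1406. Scores of separate lists are not on one scale, and the autosomal GFP median was 574.2, so the 50 and the 10 are descriptions of each list.

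The strongest regions carried acetylation in Cre cells like other peaks of their strength, but less often in GFP cells. Of the 50 with a score of at least 500, 49 (98.0%, interval 89.4 to 99.9) overlapped a Cre H3Ac peak, and 23 (46.0%, 31.8 to 60.7) overlapped a GFP H3Ac peak. Of 12797 peaks with a GFP counterpart at that score, 98.5% had Cre H3Ac and 97.3% had GFP H3Ac. The Cre share was thus that of any strong peak, and the regions differed in the GFP share. Nearly all strong peaks with a GFP counterpart had GFP H3Ac, so excluding GFP H3K4me3 also favours regions without GFP H3Ac. The lower GFP H3Ac of the regions, here and in later shares and ranks, cannot be told apart from this choice. All 20 of the highest-scoring regions had Cre H3Ac and 9 had GFP H3Ac. None of those 20 had H3K27me3 in Cre cells or H3K9me3 in either condition, and 2 had H3K27me3 in GFP cells.

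**Figure D1:**
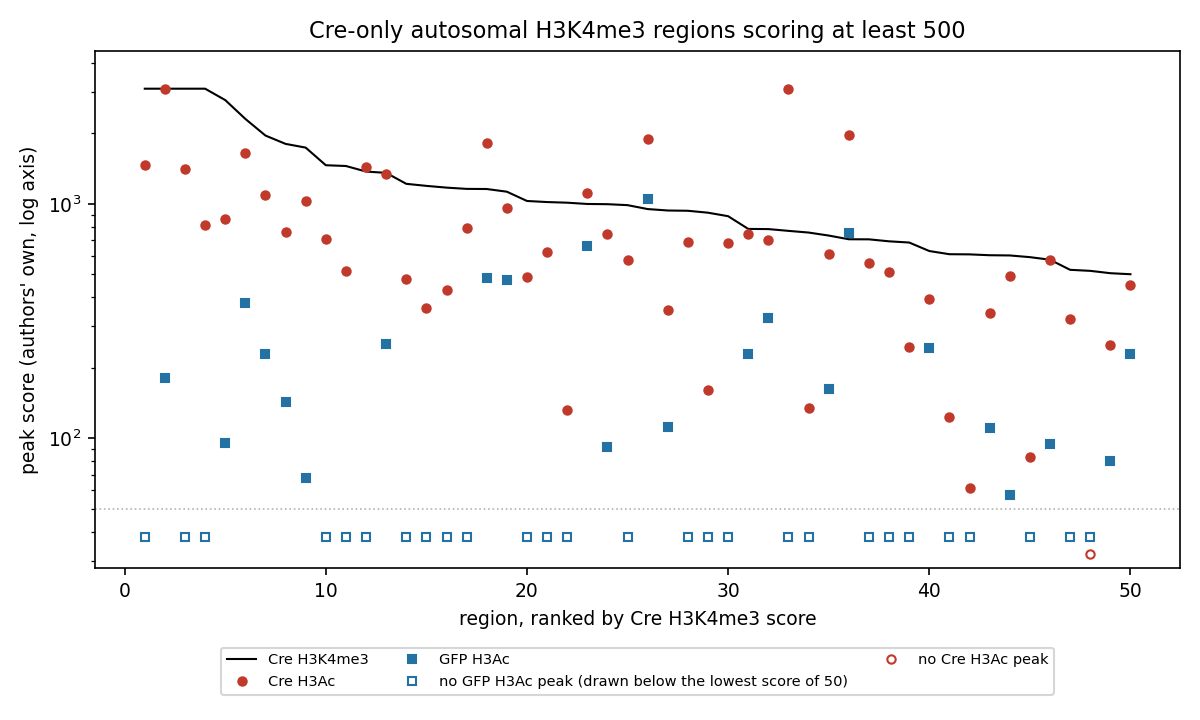
Score of each of the 50 Cre-only regions with an H3K4me3 score of at least 500 (log axis, authors' own score without unit), in order of H3K4me3 score (line), with the overlapping Cre H3Ac peak (red circles) and GFP H3Ac peak (blue squares); open symbols under the dotted line at 50 mark regions with no such peak. Scores come from 3 separate lists that are not on one scale. Cre H3Ac is missing at 1 region, GFP H3Ac at 27.

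At the top, 4 regions shared the score of 3100, a value at which 5616 autosomal Cre peaks stood, so their order among themselves has no meaning. The region chr16:97678800-97684969, at 6170 bases the second widest of the set, had a Cre H3Ac peak with a score of 1461 over its right-hand 43.2%, and no peak of any other list. The region chr18:60534854-60539022 had Cre H3Ac at 1405 over 97.6% of its length, and chr12:27138900-27141725 had Cre H3Ac at 812.1 over 87.8%. These 3 thus had both active marks in Cre cells and no listed peak of any mark in GFP cells. The remaining one, chr18:60371063-60375306, was acetylated in both conditions, with an H3Ac score of 3100 in Cre cells and 180.1 in GFP cells. There the Cre H3Ac peak spanned the whole region and the GFP peak its first 33.3%. As a rank, that is 94.3% of the autosomal Cre H3Ac list scoring lower, against 44.1% of the GFP list.

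Among the next 16 by score, 8 again had H3Ac in both conditions, each at a higher rank in the Cre list. At chr5:7960114-7963534 (H3K4me3 score 2772) 75.5% of Cre H3Ac peaks scored lower than the Cre peak there, and 24.1% of GFP H3Ac peaks scored lower than the GFP one. The difference was widest at chr6:124489658-124492739 (score 1738), with ranks of 78.2% and 11.3%. At chr5:104055328-104058681 (score 1803) the ranks were 73.4% and 37.5%. In these regions acetylation was listed in the control cells, but low in their list. The ranks were closest at chr4:115905510-115907618 (score 1127), with 77.1% and 66.5%. Between these lay chr11:100562680-100566167 (score 2304; 85.5% and 62.0%), chr2:173042120-173044905 (1956; 79.0% and 50.5%), chr14:56401114-56403245 (1157; 86.9% and 66.9%) and chr11:53881016-53882485 (1356; 82.2% and 53.0%).

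The other 8 of these 16 had H3Ac in Cre cells and none listed in GFP cells. The Cre H3Ac score was highest at chr10:97027991-97030642 (H3K4me3 score 1374), with 1434. It was 786.6 at chr6:86446679-86449023 (score 1159) and 710.3 at chr11:48874307-48878000 (score 1462). Lower acetylation, from 519.4 down to 359.8, lay at chr12:104679573-104682303 (score 1451), chr7:149761728-149764016 (1029), chr17:57365195-57367874 (1218), chr1:175906570-175908765 (1173) and chr5:115372022-115375527 (1193). Even the lowest of these H3Ac peaks stood above 60.6% of the autosomal Cre H3Ac list, so none was near the limit of listing in Cre cells.

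Over all 990 regions, acetylation was listed more often in Cre than in GFP cells. H3Ac overlapped 648 in Cre cells (65.5%, 62.4 to 68.4) and 444 in GFP cells (44.8%, 41.7 to 48.0). It was found in both conditions at 429 regions (43.3%), in Cre cells only at 219 (22.1%, 19.6 to 24.8), in GFP cells only at 15 (1.52%, 0.85 to 2.49) and in neither at 327 (33.0%). Over all 18796 Cre peaks of this score, H3Ac was in Cre only at 4.54% and in GFP only at 1.09%. The Cre-only share of the regions therefore lay well above that background, and their GFP-only share was close to it over all scores. Between scores of 100 and 200, however, H3Ac in GFP only was at 1.73% (0.926 to 2.95), below the 4.38% of peaks with a counterpart. Between 200 and 500 it was at 1.05% (0.128 to 3.75) against 2.63%, which the interval contained. The 17806 peaks with a GFP counterpart had H3Ac in both at 89.4%, in Cre only at 3.56%, in GFP only at 1.07% and in neither at 6.00%. The autosomal H3Ac lists themselves ran the other way, with 41827 peaks in Cre and 47904 in GFP cells.

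**Figure D2:**
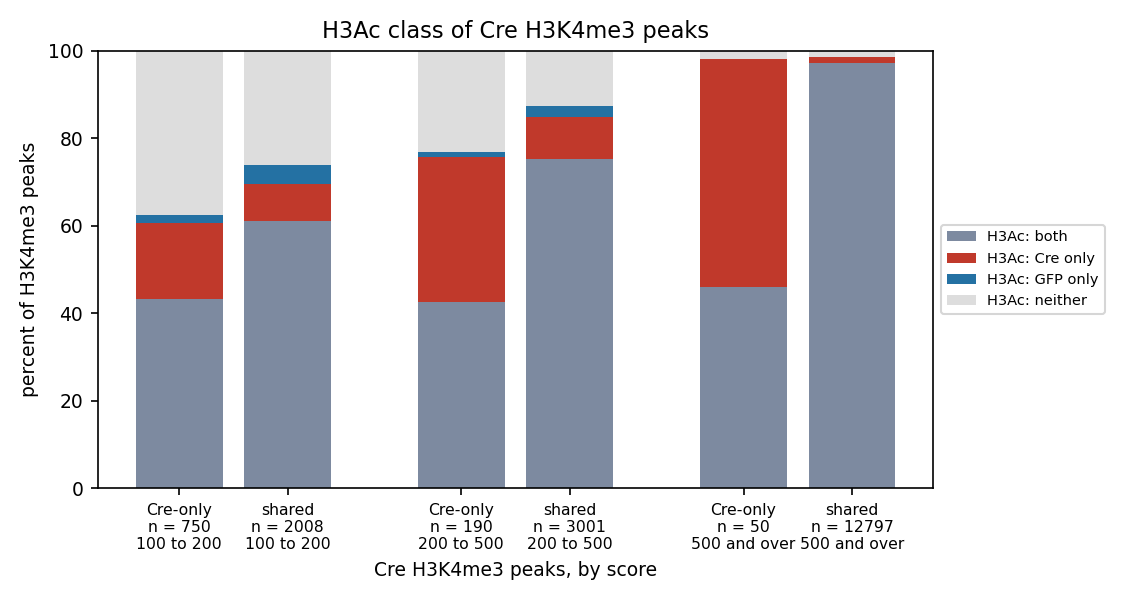
Share of regions (percent, vertical axis) by H3Ac class for Cre-only regions and for Cre H3K4me3 peaks with a GFP counterpart, labelled shared, as stacked bars within bins of Cre H3K4me3 score. H3Ac in Cre only rises from 17.3% to 52.0% over the bins in the Cre-only regions, and is 1.38% to 9.60% in the peaks with a counterpart.

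The excess of acetylation in Cre only grew with the strength of the H3K4me3 peak. It held for 130 of 750 regions between 100 and 200 (17.3%, 14.7 to 20.2), for 63 of 190 between 200 and 500 (33.2%, 26.5 to 40.3) and for 26 of 50 from 500 upward (52.0%, 37.4 to 66.3). Peaks with a counterpart gave 8.42%, 9.60% and 1.38% in the same bins. Cre H3Ac went up with score in both sets, through 60.7%, 75.8% and 98.0% of the regions and 69.4%, 84.8% and 98.5% of peaks with a counterpart. GFP H3Ac went up in peaks with a counterpart only, through 65.3%, 77.9% and 97.3%, and was at 45.1%, 43.7% and 46.0% in the regions. The sets thus differed mainly in acetylation listed in GFP cells, the condition in which the regions were chosen to lack H3K4me3.

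Since weak H3Ac peaks were the ones most often missing from the other list, regions were also compared at like Cre H3Ac score. Among Cre H3Ac scores from 50 to 100, GFP H3Ac was missing at 74.8% of the regions and at 46.3% of peaks with a counterpart. The shares were 40.7% against 18.2% between 100 and 200, and 17.1% against 2.31% between 200 and 500. At 500 and above it was missing at 22 of 142 regions (15.5%) and at 4 of 11676 peaks with a counterpart (0.0343%). Low Cre H3Ac thus went with a missing GFP peak in both sets, and at every level the share was higher in the Cre-only regions.

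**Figure D3:**
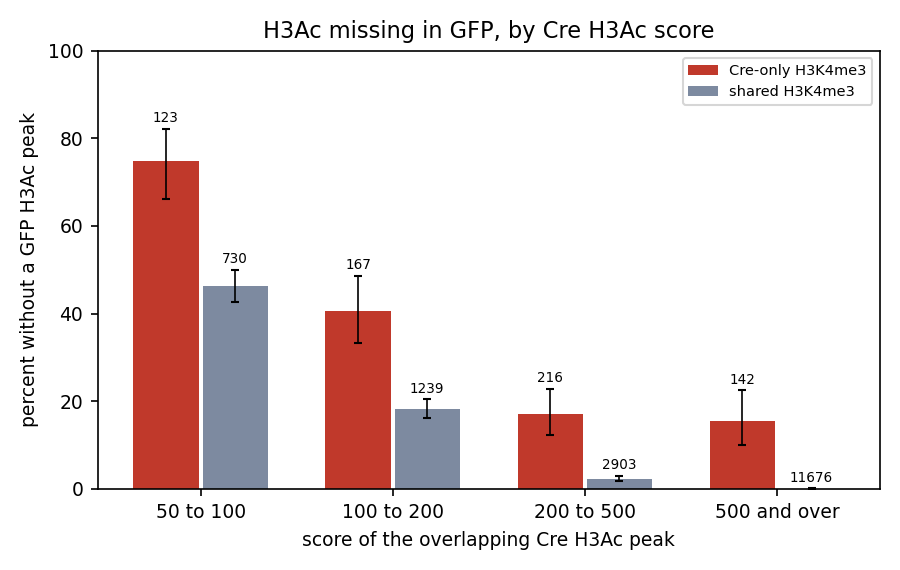
Share of regions with a Cre H3Ac peak that lacked a GFP H3Ac peak (percent, with exact 95% binomial intervals, number of regions above each bar), by score of the Cre H3Ac peak, for Cre-only regions and for Cre H3K4me3 peaks with a GFP counterpart. The share falls with H3Ac score in both sets and is higher in the Cre-only regions in each bin, 15.5% against 0.0343% in the last.

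An H3Ac peak can also reach past the region and meet a GFP H3Ac peak beside it. Of the 219 regions with H3Ac in Cre only, 203 had a Cre H3Ac peak that touched no GFP H3Ac peak anywhere along its length, and 16 had one that did. Contact was most frequent at strong acetylation: of the 22 regions with a Cre H3Ac score of at least 500 and no GFP H3Ac, 8 had a Cre H3Ac peak that touched a GFP one. Setting those aside left 14 of 142 (9.86%, 5.50 to 16.0), in place of 15.5%, against an unchanged 4 of 11676. Among the 26 of the 219 with an H3K4me3 score of at least 500, the exception was chr7:134163344-134164797 (score 767.1). Its Cre H3Ac peak, with a score of 3100, ran from 134155902 to 134164583, and the nearest GFP H3Ac peak lay 1214 bases from the region.

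Where both conditions had H3Ac, its rank was higher in the Cre list. Rank here is the percentage of a list's autosomal H3Ac peaks that scored lower than the one overlapping the region. Over 429 regions the median rank was 56.0% in Cre and 46.9% in GFP cells. The median of the differences was 6.74 points (quartiles -1.85 and 20.9), and the Cre rank was higher in 293 (68.3%, 63.7 to 72.7). In the 15914 peaks with a counterpart and H3Ac in both, the median difference was 0.332 points, and the Cre rank was higher in 52.3%. Acetylation thus stood higher in the Cre list at most, but not all, of the regions that were acetylated in both.

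**Figure D4:**
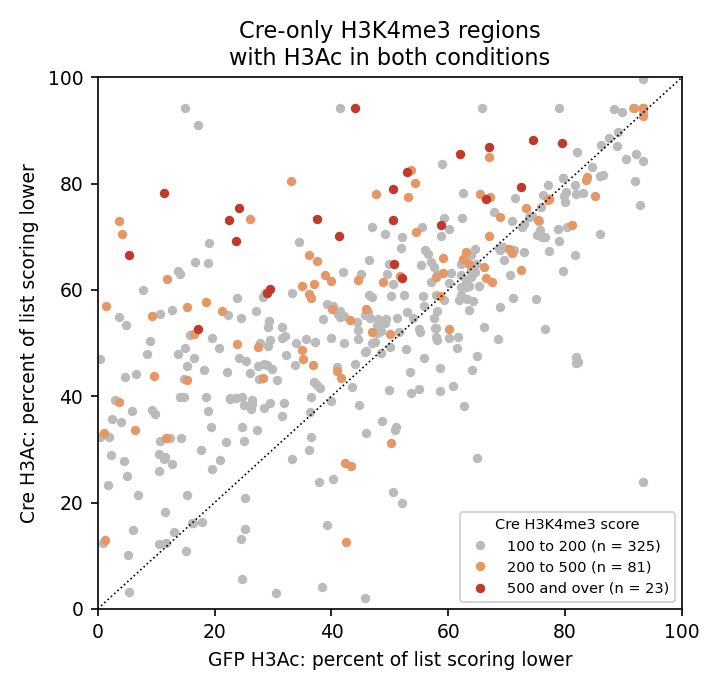
Rank of the overlapping H3Ac peak in the GFP list (horizontal) and in the Cre list (vertical), as the percentage of the list scoring lower, at the 429 Cre-only regions with H3Ac in both conditions, coloured by Cre H3K4me3 score; the dotted line marks equal ranks. All 23 regions with a score of at least 500 lie above the line, and 293 of the 429 do.

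The same order by strength was seen in the ranks. The median difference was 4.52 points for scores from 100 to 200, with 208 of 325 higher in Cre, and 11.6 points for 200 to 500, with 62 of 81 higher. From 500 upward it was 28.8 points (quartiles 13.9 and 40.7), and all 23 were higher in Cre. At these 23 the H3Ac peaks were also longer in Cre cells, with a median of 2683 bases against 1515. Peaks with a counterpart showed differences of -1.44, 0.0353 and 0.475 points in the same bins, which lie near 0 at every strength.

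A smaller set of the regions carried the Polycomb mark in both conditions. H3K27me3 overlapped 224 in Cre cells (22.6%, 20.1 to 25.4) and 238 in GFP cells (24.0%, 21.4 to 26.8), 203 of them in both. In these 203 bivalent-type regions the H3K27me3 peaks covered a median of 91.67% of the region in Cre and 90.23% in GFP cells, so the overlap was rarely at an edge. Their H3K27me3 was strong, with a median rank of 82.57% of the list scoring lower in Cre and 83.19% in GFP cells. Acetylation was less common there: 61 of the 203 had Cre H3Ac, against 551 of the 731 regions without H3K27me3, or 30.0% against 75.4%. Peaks with a counterpart showed the same direction, with 60.4% against 96.3%, and between scores of 100 and 200 the values were 25.8% against 71.1% in the regions and 29.0% against 80.9% in peaks with a counterpart. Lower acetylation at Polycomb-marked peaks was therefore not particular to the regions. Peaks with a counterpart had H3K27me3 in Cre cells at 10.1% over all scores. Within the 100 to 200 bin, however, they had it at 22.7% and the regions at 23.7%, and between 200 and 500 at 21.4% and 23.2%, and in both bins the interval of the regions contained the other share. GFP H3K27me3 was at 23.7% (20.7 to 26.9) of the regions and 20.9% of the others in the first bin. In the second it was at 28.9% (22.6 to 36) and 20.2%, and the interval of the regions lay above the other share. The regions were chosen to lack GFP H3K4me3, so this difference cannot be told apart from the choice.

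The 3 highest-scoring regions with H3K27me3 in both conditions had it at low scores. The first, chr8:86549993-86551400 (H3K4me3 score 608.9), had H3K27me3 at 50.42 in Cre and 79.14 in GFP cells, with weak Cre H3Ac of 61.49. The region chr17:35400187-35402523 (score 451.5) had 50.22 and 63.22, and H3Ac at 302.7 in Cre against 51.65 in GFP cells. Its H3K27me3 peaks covered 0.727% of it in Cre and 3.64% in GFP cells, an overlap at the edge. Between them, chr9:40076951-40079282 (score 517.9) had H3K27me3 at 71.23 in Cre and 89.62 in GFP cells and was the 1 region of the strongest 50 with no H3Ac in either. Further regions without H3Ac had higher H3K27me3 scores: chr2:127346543-127348074 (score 404.6) had H3K27me3 at 1673 in Cre and 1171 in GFP cells, and chr8:28336965-28339676 (score 428.6) had 164.4 and 249.1. Unacetylated regions with a high H3K4me3 score were in these 3 cases all Polycomb-marked in both conditions. Over all 327 regions without H3Ac, however, 141 had H3K27me3 in both conditions and 167 had it in neither.

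H3K27me3 in 1 condition only was rare. It was in GFP cells only at 35 regions (3.54%, 2.47 to 4.88) and in Cre cells only at 21 (2.12%, 1.32 to 3.22), against 1.11% and 1.61% of all Cre H3K4me3 peaks of this score. The interval of the GFP-only share lay above its background, and that of the Cre-only share contained its background. Among the 677 GFP-only H3K4me3 peaks, H3K27me3 was in GFP only at 8.42% and in Cre only at 4.14%. A raised share was thus not particular to the regions. The autosomal H3K27me3 lists held 29328 peaks in Cre and 34064 in GFP cells. At like score, H3K27me3 in GFP only was at 2.53% of the regions and 1.44% of peaks with a counterpart between 100 and 200, and at 6.84% (3.69 to 11.4) and 1.87% between 200 and 500. Of the 35 with H3K27me3 in GFP only, 24 had Cre H3Ac, and 20 had H3Ac in Cre only as well. That combination, both active marks in Cre and the Polycomb mark in GFP, made up 2.02% of the regions and 0.191% of peaks with a counterpart. At like score the shares were 1.33% (0.641 to 2.44) and 0.349% between 100 and 200, and 4.21% (1.84 to 8.13) and 0.5% between 200 and 500. The regions were chosen to lack GFP H3K4me3, and the other peaks have it by definition. The difference in this combination therefore cannot be told apart from the choice.

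The strongest regions with H3K27me3 in GFP cells only were among those already named. At chr11:53881016-53882485 the GFP H3K27me3 peak scored 98.56 and covered 59.2% of the region. At chr17:57365195-57367874 it scored 402.6 but covered 6.9%, an overlap at the edge. At chr4:107702829-107704463 (H3K4me3 score 1012) it scored 70.12, near the limit of listing, with Cre H3Ac at 132.4. None of the 3 therefore combined a high GFP H3K27me3 score with full cover. Weak H3K27me3 was also the kind most often missing from the Cre list: of regions with a GFP H3K27me3 score between 50 and 100, 48.4% had none in Cre cells, as did 43.2% of peaks with a counterpart. The shares were 33.3% (18.6 to 51.0) and 21.8% for scores from 100 to 200, and 10.4% (4.59 to 19.4) and 3.88% from 200 to 500. Of 94 regions with a score of at least 500 none lacked it, against 1.20% of peaks with a counterpart.

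The 3 highest-scoring regions with H3K27me3 in Cre cells only were of middling strength. They were chr10:126948770-126950869 (H3K4me3 score 275.3, Cre H3K27me3 274.9), chr8:4226698-4227830 (245.0 and 91.38) and chr4:131603539-131604665 (196.3 and 142.3). Beside the first, chr10:126951683-126953340 had H3K27me3 in both conditions, at 274.90 in Cre and 274.91 in GFP cells. The Cre H3K27me3 score was the same at both regions, and whether 1 Cre peak spanned them was not examined. All 3 also had Cre H3Ac, as did 12 of the 21 regions of that class. Cre H3K27me3 covered a median of 22.68% of these 21. Their Cre H3K27me3 peak touched no GFP one at 6 of 8 for scores from 50 to 100 and 5 of 6 from 100 to 200. For 200 to 500 it was 1 of 3, and at 500 and above 0 of 4.

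The 15 regions acetylated in GFP cells only went against the main pattern. The highest, chr5:20878583-20880309, had an H3K4me3 score of 391.98 in Cre cells, with H3Ac at 55.15 and H3K27me3 at 72.88 in GFP cells. The others were weaker in H3K4me3: chr3:64781359-64782982 scored 211.5 with GFP H3Ac at 65.65, and chr3:97627803-97629094 scored 183.3 with GFP H3Ac at 145.5. The last of these had H3K27me3 at 246.2 in Cre and 51.09 in GFP cells. The GFP H3Ac of the class was mostly low, with a median rank of 26.01%.

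Few of the regions carried the heterochromatin mark. H3K9me3 overlapped 47 regions in Cre cells (4.75%, 3.51 to 6.26) and 29 in GFP cells (2.93%, 1.97 to 4.18), 23 of them in both. Peaks with a counterpart had it at 1.62% in Cre and 1.74% in GFP cells. Between scores of 100 and 200 the Cre shares were 5.47% (3.95 to 7.34) of the regions and 4.73% of peaks with a counterpart, and the GFP shares were 3.33% (2.17 to 4.88) and 5.43%. In that bin the Cre share was thus near that of other peaks, and the GFP share below it. Between 200 and 500 the GFP shares were 1.58% (0.327 to 4.54) and 2.77%, and the interval of the regions contained the other share. Of the 47, 45 had no H3Ac in either condition, and the highest H3K4me3 score among them was 362. The autosomal H3K9me3 lists differed in length, with 3516 peaks in Cre and 9574 in GFP cells, so a higher count in Cre cells went against the lengths of the lists. The GFP-only H3K4me3 peaks also had H3K9me3 more often in their own condition, at 37.5% in GFP and 13.6% in Cre cells. A lean to the condition of the H3K4me3 peak was thus not particular to the regions. A further 118 regions (11.9%) had no H3Ac, H3K27me3 or H3K9me3 in either condition, against 1.14% of peaks with a counterpart. At like score the difference was smaller, with 14% (11.6 to 16.7) against 7.02% between 100 and 200, and 6.84% (3.69 to 11.4) against 1.90% between 200 and 500. From 500 upward there were none among the 50 regions and 0.0391% of the others. Of the 677 GFP-only H3K4me3 peaks, 9.31% also had no other mark in either condition, so this was not particular to the regions.

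The GFP-only H3K4me3 peaks, chosen in the same way in reverse, had another makeup. Of the 677, 18.6% carried H3Ac in GFP cells and 81.2% had none in either condition. H3K27me3 in GFP cells overlapped 48.0%, and H3K9me3 in GFP cells 37.5%. The Cre-only regions had 65.5% H3Ac, 22.6% H3K27me3 and 4.75% H3K9me3 in their own condition. The peaks found in Cre only were thus mainly acetylated, and those found in GFP only mainly not. Each set was measured against lists of its own condition, which differ in length as given above.

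Many of the regions lay near H3K4me3 that was present in GFP cells. The nearest GFP H3K4me3 peak was within 1 kb for 234 (23.6%), between 1 and 5 kb for 112 (11.3%), between 5 and 50 kb for 410 (41.4%) and over 50 kb for 234 (23.6%). Of the 234 within 1 kb, 223 lay beside a GFP peak that itself overlapped another Cre H3K4me3 peak. These regions were therefore Cre peaks called next to a shared one. From the nearest to the farthest of these 4 distance classes, H3Ac in Cre only was found at 23.1%, 25.9%, 22.7% and 18.4%. Cre H3Ac was found at 68.8%, 57.1%, 69.5% and 59.0%, and GFP H3Ac at 46.2%, 34.8%, 47.8% and 43.2%. None of the 3 followed distance in 1 direction, and in each class Cre H3Ac was more frequent than GFP H3Ac. Among GFP-only peaks 10.2% lay within 1 kb of a Cre peak.

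**Figure D5:**
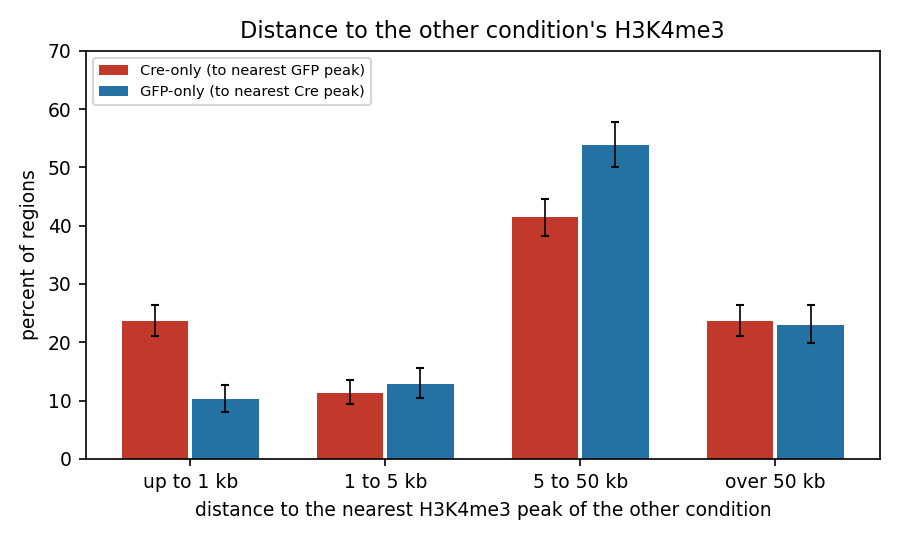
Share of Cre-only and GFP-only H3K4me3 regions (percent, vertical axis) by distance from the nearest H3K4me3 peak of the other list, with exact 95% binomial intervals as error bars. The class within 1 kb holds 23.6% of the Cre-only and 10.2% of the GFP-only regions.

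The regions were about as wide as other peaks of their strength. Their median width was 1095 bases and their range 359 to 6345, and peaks with a counterpart had a median of 1870. By score bin the medians were 1040, 1442 and 2314 bases in the regions and 1028, 1240 and 2260 in peaks with a counterpart. The widest, chr13:120277365-120283709, was weak, with a score of 109.3, and lay 181 bases from a GFP peak. It had H3Ac in both conditions and H3K9me3 in Cre cells only. The next widest were the regions on chromosomes 16 and 18 at 3100.

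No chromosome stood out in its share. The regions made up between 4.28% of the Cre peaks of chromosome 6 and 6.77% of those of chromosome 18, and the intervals of all 19 autosomes contained 5.27%. On each of the 19 the share of Cre-only peaks was higher than the share of GFP-only peaks.

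On a finer scale, 243 of the regions (24.55%) lay within 100 kb of another one, in 113 groups, of which 102 were pairs. The pairs spanned from 1911 to 102307 bases, so the count includes peaks that closely adjoin each other. Of the strongest 50, 18 were in groups. Other peaks were not grouped in this way, so whether the regions lay closer together than other peaks was not tested. The largest group held 6 regions between 36194068 and 36389657 on chromosome 17, all weak, with H3K4me3 scores from 253.1 to 115.1. All 6 had H3K27me3 in GFP cells and 5 in Cre cells, while 3 had H3Ac in Cre and none in GFP cells. The Polycomb mark was thus listed in both conditions at 5 of the 6, and H3K27me3 between these regions was not examined.

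Next in size were 3 groups of 4 regions, 2 of which held top-ranked regions. The other, on chromosome 15 between 82104629 and 82211717, was weak, with H3K4me3 scores from 159.9 to 112.1. Its 4 regions all had Cre H3Ac and 2 had GFP H3Ac, and 1 had H3K27me3, in both conditions. On chromosome 18 between 60371063 and 60539022, the 2 regions at 3100 flanked weaker ones at 367.1 (chr18:60431686-60433435, with Cre H3Ac of 114.7) and 253.8 (chr18:60452561-60454789, with no other mark), and none of the 4 had H3K27me3. On chromosome 7 between 149761728 and 149844118, the region at 1029 was followed by 3 adjoining ones at 285.7, 407.8 and 115.5, with H3Ac in Cre cells at the first 2 of these and in GFP cells at none. H3K27me3 was present at chr7:149840272-149842257 in both conditions (212.6 in Cre, 279.6 in GFP cells) and at chr7:149842280-149843368 in GFP cells only (56.75). Groups of 3 included the region at 1462 on chromosome 11 (48804689 to 48903155) and that at 1173 on chromosome 1 (175902986 to 175962270), neither with any H3K27me3. In the chromosome 18 group the 2 strongest regions lay at its ends, with weaker ones between.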

How the data were processed

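Chromatin immunoprecipitation sequencing peak lists of 4 histone marks in 2 conditions were used, 1 library each. The score of each peak is the authors' own, deposited without a unit, and was used only to rank, filter and describe peaks within a list. The submitters' processing notes name MACS 1.4.1, bedtools 2.16.2, SAMtools 0.1.18 and BWA, and build NCBIM37, without saying what each was used for. The input used as control and the read depth are not given in the sources used here.

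Peaks sharing at least 1 base were taken as overlapping. Where several peaks of a list overlapped a region, the highest score was kept. Python 3.11.15, NumPy 2.4.6, pandas 2.3.3, SciPy 1.17.1 and matplotlib 3.10.9 were used. The overlap step was tested on simulated data: of 1158 losses planted among 22621 peaks, 99.4% were recovered with 0 false ones. On the real lists, 0 overlap counts of the Cre H3K4me3 peaks with the other lists differed from bedtools. Named regions were the 20 highest-scoring, the top 3 of each H3Ac and H3K27me3 class, the 3 widest, the 3 largest neighbour groups (3 groups tied at 4 regions, of which the rule took the 2 with the highest scores) and 3 on each side of the threshold. The region on chromosome 7 with a score of 767.1 and the chromosome 15, 11 and 1 groups were chosen after their values were seen. Regions and lists were chosen with earlier results of these data known. Alternatives changed the minimum score, the overlap rule and the joining of peaks. Of 18 samples, 10 were not analysed here.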

Additional observations from a re-analysis of the deposited data

Results flagged for a closer look

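Outside the autosomes, which the comparisons did not use, Cre H3K4me3 peaks past a score of 100 without a GFP counterpart also occurred. On chromosome X there were 34 of 595, with a highest score of 845.6, against 22 of 563 in the reverse direction, with a highest score of 586.2. On unplaced sequence there were 6 of 57, against 3 of 57. On chromosome Y there were 0 of 4 in each direction.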

How the results depend on the processing

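The number of regions moved most with the minimum score: 2750 with none, 240 at 200 and 50 at 500. Counting a GFP peak within 5000 bases as a counterpart left 644, while a distance of 1000 bases left 756, joining peaks within 1000 bases gave 734, and asking a GFP peak to cover 50% of the region gave 1301. In regions with a score of at least 200, H3Ac was present in Cre cells at 80.4%, in Cre only at 37.1% and in neither at 18.8%, and H3K27me3 in Cre cells at 19.2%. With the other mark's peak at a score of at least 100, H3Ac was present in Cre at 53.0%, in GFP at 33.1%, in both at 31.3% and in neither at 45.2%, and H3K27me3 in GFP at 20.9%. With 50% of the region covered, H3Ac in GFP was 41.3% and in both 40.2%, and H3K27me3 was 17.6% in Cre and 19.5% in GFP. H3Ac in Cre stayed above H3Ac in GFP in each of these. The cause was not tested, beyond the smaller number of regions or peaks that each setting admits. No paired analysis was possible because each mark has 1 library per condition. Unknown depth limits all counts of regions near the lowest scores.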

Other observations

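Of the regions, 6 had H3K9me3 in GFP cells only. The strongest, chosen after its values were seen, was chr1:87546145-87549146, with an H3K4me3 score of 592.6 and H3Ac of 83.35 in Cre cells and H3K9me3 of 476.1 in GFP cells, above 97.8% of the autosomal GFP H3K9me3 list. It had no H3K9me3 in Cre cells. The other 5 had H3K4me3 scores from 196.1 to 101.4 and GFP H3K9me3 scores from 131.3 to 79.72. Of these, chr16:32200218-32201297 also had H3Ac in Cre cells. The reverse pattern, H3K9me3 in Cre cells only, was present at 24 regions. These are 0.606% of the regions for GFP only and 2.42% for Cre only, against 0.281% and 0.157% of peaks with a counterpart. Between H3K4me3 scores of 100 and 200 the shares were 0.667% (0.217 to 1.55) against 1.44% for GFP only, and 2.80% (1.74 to 4.25) against 0.747% for Cre only. The GFP-only H3K4me3 peaks had H3K9me3 in GFP only at 26.1% and in Cre only at 2.22%.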
